A study of Saccharomyces cerevisiae with 18 samples.

Results

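Spores that had spent 128 min in glucose without other nutrients were compared with spores that had spent 64 min in rich medium, the YPD time whose mean profile lay closest to theirs. Of the genes of nitrogen use 12 of 19 had higher transcript levels in glucose, as had 7 of 10 genes of branched-chain amino acid synthesis. Lysine synthesis, with 1 of 10, was near the 10.1% of all genes that were higher in glucose. The differences were led by UGA1, which makes the GABA transaminase, with a 10.5-fold difference. Genes of ribosome assembly and of RNA polymerases I and III stood higher in YPD, by a median of 0.85 and 0.95 on the log2 scale. The median transcripts of respiration, the TCA cycle, glycolysis and the stress response lay below the dormant spore level in both media, and less far in glucose. With the arrays scaled to a common spread, 13 nitrogen and 6 branched-chain genes were higher in glucose. The count was 8 in place of 43 for ribosome assembly, 0 in place of 13 for respiration and 1 in place of 12 for stress. Over all 5739 genes it was 265 in place of 582 in glucose and 114 in place of 300 in YPD. The scaling widens the glucose levels and narrows those in YPD, so its effect depends on the side of the dormant level.

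The comparison takes in 6 of the 53 arrays of the series, 3 biological replicates of glucose at 128 min and 3 of YPD at 64 min. Spores of the Y55 background, an HO strain, came from sporulated diploid cells, were purified with zymolyase and were placed in pure 2% glucose or in YPD, a medium of yeast extract, peptone and 2% glucose. Every array carried RNA of the time point in Cy5 and RNA of dormant spores, taken before the germinant was added, in Cy3, with no dye swap. A level is therefore the log2 ratio to dormant spores, and a difference is the level in glucose at 128 min minus that in YPD at 64 min. Each spore suspension is a bulk sample, so that fewer cells with a transcript and less of it per cell cannot be told apart. The same holds for a mixture of early and late spores.

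The pair of times was chosen by the closeness of the group means over all genes, with no test. The correlation of the glucose 128 min mean with the YPD means, across genes that are not independent replicates, came to 0.23 for YPD at 0 min, to 0.75 for 16 min and to 0.82 for 48 min, was highest at 64 min with 0.88, and then stood at 0.86 (96 min) and 0.87 (128 min). The maximum is shallow, and glucose replicate 3 alone gave 0.75 against YPD at 64 and at 96 min. Because the choice favours a pair with small differences, the number of genes that differ in it is a description of this pair. For the same reason the main gene groups are also given in glucose at 96 min against YPD at 48 min. These 6 other arrays, further back in both courses, share with the pair the dormant reference RNA and, possibly, the cultures. Glucose replicate 3 of 96 min and that of 128 min also share an array layout and a quantification day.

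Yeast spores leave dormancy when glucose is present, and growth then depends on what else the medium holds. When preferred nitrogen sources run short, the GATA activators Gln3 and Gat1 switch on permeases and catabolic enzymes for poorer sources, with Dal80 as a repressor on the same genes. Starvation for amino acids raises translation of Gcn4, which activates most routes of amino acid synthesis, and Met4 with Met31, Met32 and Cbf1 does so for sulfur. Rich medium in turn drives the genes for rRNA synthesis and ribosome assembly, a large part of the cost of growth.

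The markers fixed for the cell state were mixed, with 3 spore markers far below the dormant level and most growth markers above it. SIP18, GRE1 and SPS100, transcripts stored in spores, stood between -4.57 and -4.33 in glucose and between -6.76 and -6.13 in YPD. The other 8 tested spore markers, DIT1, DIT2, CDA1 and CDA2 among them, did not pass the test between the groups. Of all 11, 6 were below the dormant level in glucose and 7 in YPD, with medians of -0.25 and -0.08. NDT80 stood above it, at 0.89 in glucose and 0.68 in YPD, and SPS4 below it, at -1.70 and -1.77. The 6 tested growth markers had a median level of 1.20 in glucose and 1.17 in YPD. The medians over the markers measured on an array were 1.04 to 1.32 and 1.32 to 1.52. RPS3 was below the dormant level in glucose, at -0.15. All 7 tested mating markers had a mean above the dormant level in both groups, that of FUS1 in YPD being 0.007 (SD 0.41).

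The arrays were not equal in 2 respects that bear on every result. The SD of the levels over genes was 0.85, 0.87 and 0.71 on the glucose arrays and 1.11, 1.13 and 1.16 on the YPD arrays, and the glucose mean followed the YPD mean with a slope of 0.62. Glucose replicate 3 also stood apart, with correlations of 0.79 and 0.78 to the other glucose arrays, which correlated at 0.91 with each other, and it was printed in another layout and quantified on another day. The YPD arrays were quantified on 1 day, the glucose arrays on 2 others, and no day holds both groups, so that within-day values cannot be given and day and group cannot be told apart in these 6 arrays.

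Of 5739 genes tested, 582 (10.1%) were higher in glucose and 300 (5.23%) were higher in YPD (limma moderated test, Benjamini-Hochberg adjusted p under 0.05). A difference of at least 2-fold was reached by 286 of the former and 128 of the latter. The 6 arrays did not overlap between groups in 548 and 268 of them. Over all 5739 genes, in either direction, 450 reached 2-fold and 1868 did not overlap. Of the 582 genes, 415 were below the dormant level in both media, 130 were above it in glucose and below it in YPD, and 37 were above it in both. Of the 300 genes, 236 were above the dormant level in both and 56 were above it in YPD only. Over all 5739 genes, 2403 were below the dormant level in both media and 2366 were above it in both. A further 479 were above it in glucose only and 491 in YPD only. Most calls were thus on the same side of the dormant level in both media, as were most genes tested, and further from it in YPD. Without glucose replicate 3 the counts were 368 and 157, and without YPD replicate 2 they were 442 and 168. With quantification day as a block, which the other groups make possible over the 1530 genes measured on all arrays, 77 genes were higher in glucose and 41 in YPD, against 171 and 73 without the block, 77 of the 240 calls among those genes were kept and 233 had the same sign, and the differences correlated across genes at 0.74.

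**Figure D1:**
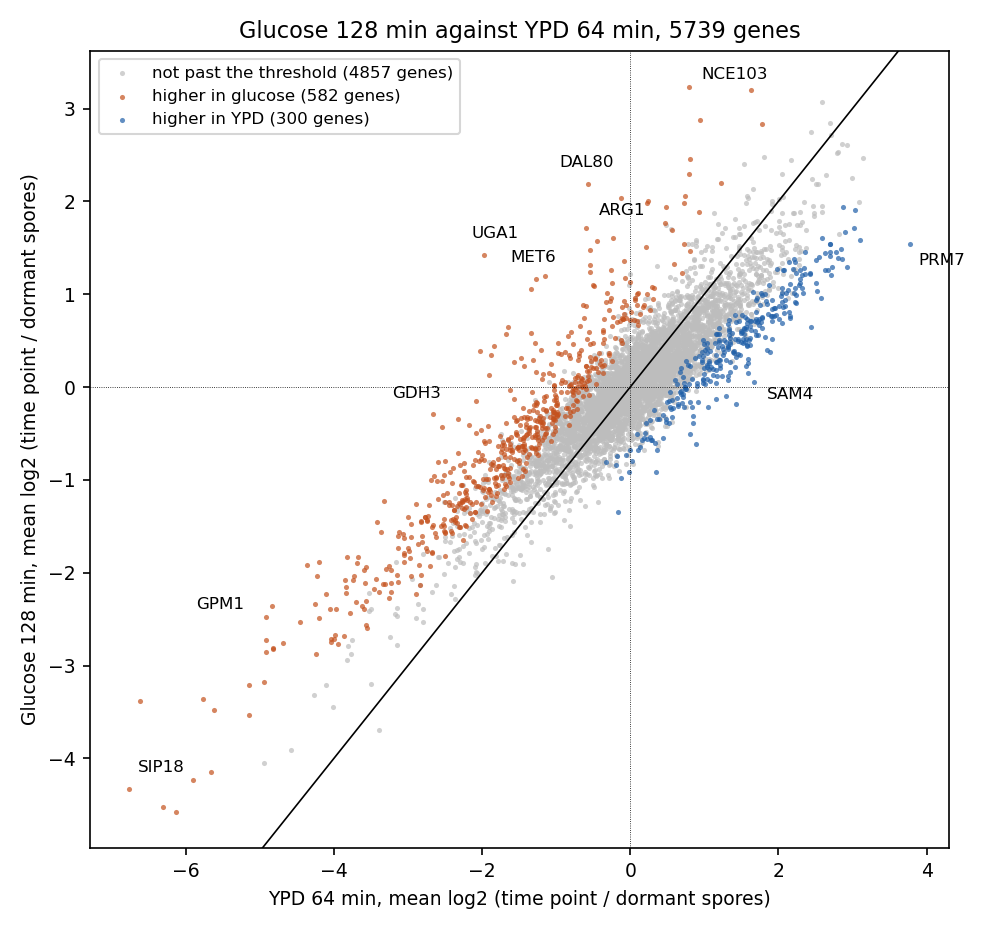
Mean log2 level against dormant spores in YPD at 64 min (x axis) and in glucose at 128 min (y axis), 1 point per gene for 5739 genes, 3 arrays per group. The 582 genes higher in glucose and the 300 higher in YPD are coloured, and the cloud is flatter than the diagonal, with a slope of 0.62.

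When the 6 arrays were divided by their own spread and brought to a common one, a setting added after the values were seen, 265 genes were higher in glucose and 114 in YPD, and 305 of the 882 calls remained. Of the genes below the dormant level in both media 20% were still called, of those on opposite sides of it 78.5%, and of those above it in both 100%. Of the genes higher in YPD 27.7% were still called. The scaling widens the glucose levels and narrows the YPD levels. These shares therefore depend by construction on the side of the dormant level and are no test of the calls. The scaling also treats the wider range in YPD as if it were not part of the difference. The values with and without it are both given for the main gene groups.

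The largest difference was that of UGA1, whose product degrades GABA to glutamate and succinate semialdehyde. Its level was 1.28, 1.19 and 1.80 in glucose and -2.14, -1.43 and -2.34 in YPD. The glucose arrays were all above the dormant level and the YPD arrays all below it, with a difference of 3.39 (SE 0.22, n = 3 and 3, limma adjusted p = 7.74e-15). UGA2, the next enzyme of the route, stood at 1.36, 0.76 and 1.84 in glucose and -0.47, -0.27 and -0.89 in YPD (difference 1.86, SE 0.22). UGA4, the GABA permease, had 1.63, 0.08 and 1.65 against -0.29, -0.14 and -0.31, so that 1 glucose array lay close to the YPD arrays (difference 1.37, limma adjusted p = 0.00767). All 3 genes of the GABA route were thus higher in glucose, and UGA2 was picked for this after its values were seen.

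The list of genes under nitrogen limitation held 12 of 19 tested genes that were higher in glucose and 0 that were higher in YPD by the limma test, against the 10.1% and 5.23% of all genes, and 15 and 0 at an unadjusted p under 0.05. The median level of its members was 1.12 in glucose and -0.24 in YPD, with array medians of 0.89 to 1.28 and -0.29 to -0.14. DAL80, the GATA repressor, stood at 2.54, 1.84 and 2.20 in glucose and at -0.45, -0.49 and -0.76 in YPD, a difference of 2.75 (SE 0.30, limma adjusted p = 8.32e-09). Its Cy3 signal passed the background on 1 of the 6 arrays, so the size of its ratio rests on a dormant level near the background. GDH2, the glutamate dehydrogenase that releases ammonium, had 0.67, 0.50 and 0.76 in glucose and -2.23, -1.72 and -1.00 in YPD, a difference of 2.29 (SE 0.30, limma adjusted p = 5.04e-07). CAR1, arginase, was far above the dormant level in both media, at 3.32, 3.67 and 2.60 in glucose and 1.82, 1.29 and 1.80 in YPD.

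Ammonium, urea and allantoin genes were mixed in their size. MEP2, an ammonium permease and sensor, stood at 0.92, 1.74 and 1.86 in glucose and 0.53, 0.40 and -0.28 in YPD, without overlap (difference 1.29, limma adjusted p = 0.0193). MEP3, another ammonium permease, DUR3, the urea permease, PUT1 and PUT2, which oxidise proline, and DAL2 and DAL7 of allantoin breakdown were also higher in glucose, by 0.88 to 1.93. DAL1, the allantoinase, did not pass the test at 1.44, 1.36 and 1.13 in glucose and 1.10, 0.97 and 0.82 in YPD (difference 0.35, limma adjusted p = 0.428), nor did DAL3, DAL4 and DAL5, with differences of -0.35, 0.50 and 0.26. Of the activators, GLN3 itself was higher in glucose by 1.07 (SE 0.20, limma adjusted p = 0.000171). With the arrays scaled to a common spread 13 genes of the list were higher in glucose.

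**Figure D2:**
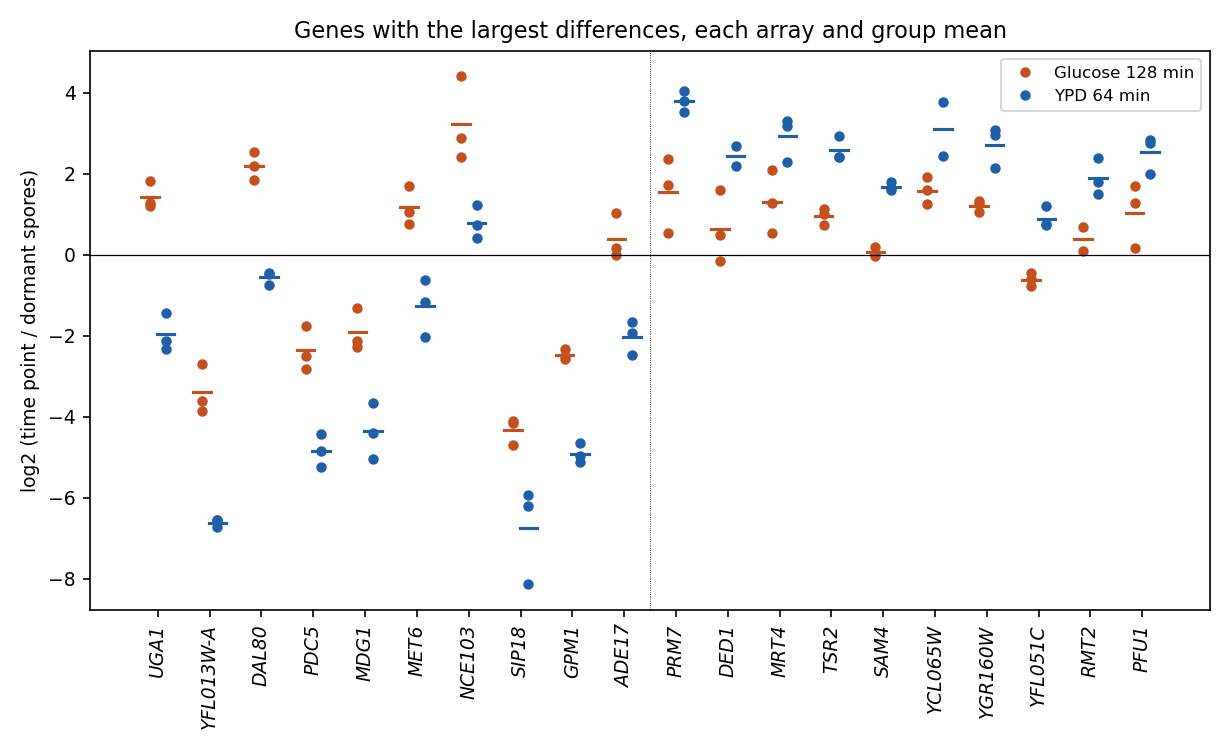
Log2 level against dormant spores on each array (points) and the mean of each group (bars) for the 10 genes with the largest difference higher in glucose (left) and the 10 higher in YPD (right), 3 arrays per group with flagged spots left out. They were taken from genes past the threshold whose arrays did not overlap and whose Cy5 signal in the higher group passed the background. UGA1, DAL80 and MET6 lie on opposite sides of the dormant level, whereas YFL013W-A, PDC5, MDG1, SIP18 and GPM1 lie below it in both media.

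Amino acid synthesis differed route by route. In branched-chain synthesis 7 of 10 tested genes were higher in glucose. LEU1 and LEU2, of the leucine branch, had differences of 2.02 (SE 0.32) and 1.78 (SE 0.19), and LEU2 stood at 1.25, 1.30 and 1.16 in glucose and -0.56, -0.70 and -0.37 in YPD. The mitochondrial and cytosolic transaminases of the route, BAT1 and BAT2, were higher by 1.46 and 2.02. The replicate spread of LEU2 was small beside its difference in both groups. The count was 6 on the common spread.

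In arginine synthesis 3 of 8 tested genes were higher in glucose. ARG1, argininosuccinate synthetase, stood at 1.77, 1.62 and 1.75 in glucose and -0.69, -0.70 and -0.38 in YPD, a difference of 2.31 (SE 0.27, limma adjusted p = 1.35e-07). ARG4, the lyase that follows it, was higher by 1.34. In histidine synthesis 3 of 5 were higher, with HIS5, the aminotransferase, at 1.04, 0.97 and 1.15 in glucose and -1.27, -1.38 and -1.37 in YPD. Arginase and both of these enzymes that make arginine were thus higher in glucose in the same samples.

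Among 18 other tested genes of amino acid synthesis 10 were higher in glucose. They included both NADP-dependent glutamate dehydrogenases, GDH1 (difference 2.16, SE 0.48) and GDH3 (difference 2.36, SE 0.24), and glutamine synthetase, GLN1, at 1.52, -0.02 and 0.24 in glucose and -1.67, -0.75 and -1.62 in YPD. ASN1, asparagine synthetase, stood at 2.65, 3.52 and 2.45 against 0.45, 0.88 and 1.52. Its difference was 1.93 (SE 0.23, limma adjusted p = 1.34e-07). Scaled to the common spread, 3 arginine, 3 histidine and 8 of these other genes were higher in glucose. GDH1 and GDH3, like BAT1 and BAT2, are paralogs, and spotted probes of similar genes can bind each other's cDNA.

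Lysine and aromatic synthesis were near the share over all genes. In lysine synthesis 1 of 10 tested genes was higher in glucose, LYS14, the activator of the route, by 0.59, and the count was 0 without glucose replicate 3 or any of the YPD replicates. LYS9 had 1.06, 0.21 and 3.09 in glucose and 2.20, 1.91 and 0.87 in YPD, a spread within groups that exceeds their difference. In aromatic synthesis 2 of 13 were higher in glucose, TRP5 by 0.74 and ARO4 by 0.62, and ARO7, chorismate mutase, was higher in YPD, with a difference of -0.77. The count in glucose was 0 without glucose replicate 2, YPD replicate 1 or YPD replicate 2, that in YPD was 0 without glucose replicate 1 or 3 or YPD replicate 1 or 2, and TRP5 was called in 12 and ARO4 in 7 of 19 settings. The lysine count was 1 on the common spread, and the aromatic counts there were 3 in glucose and 0 in YPD.

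**Figure D3:**
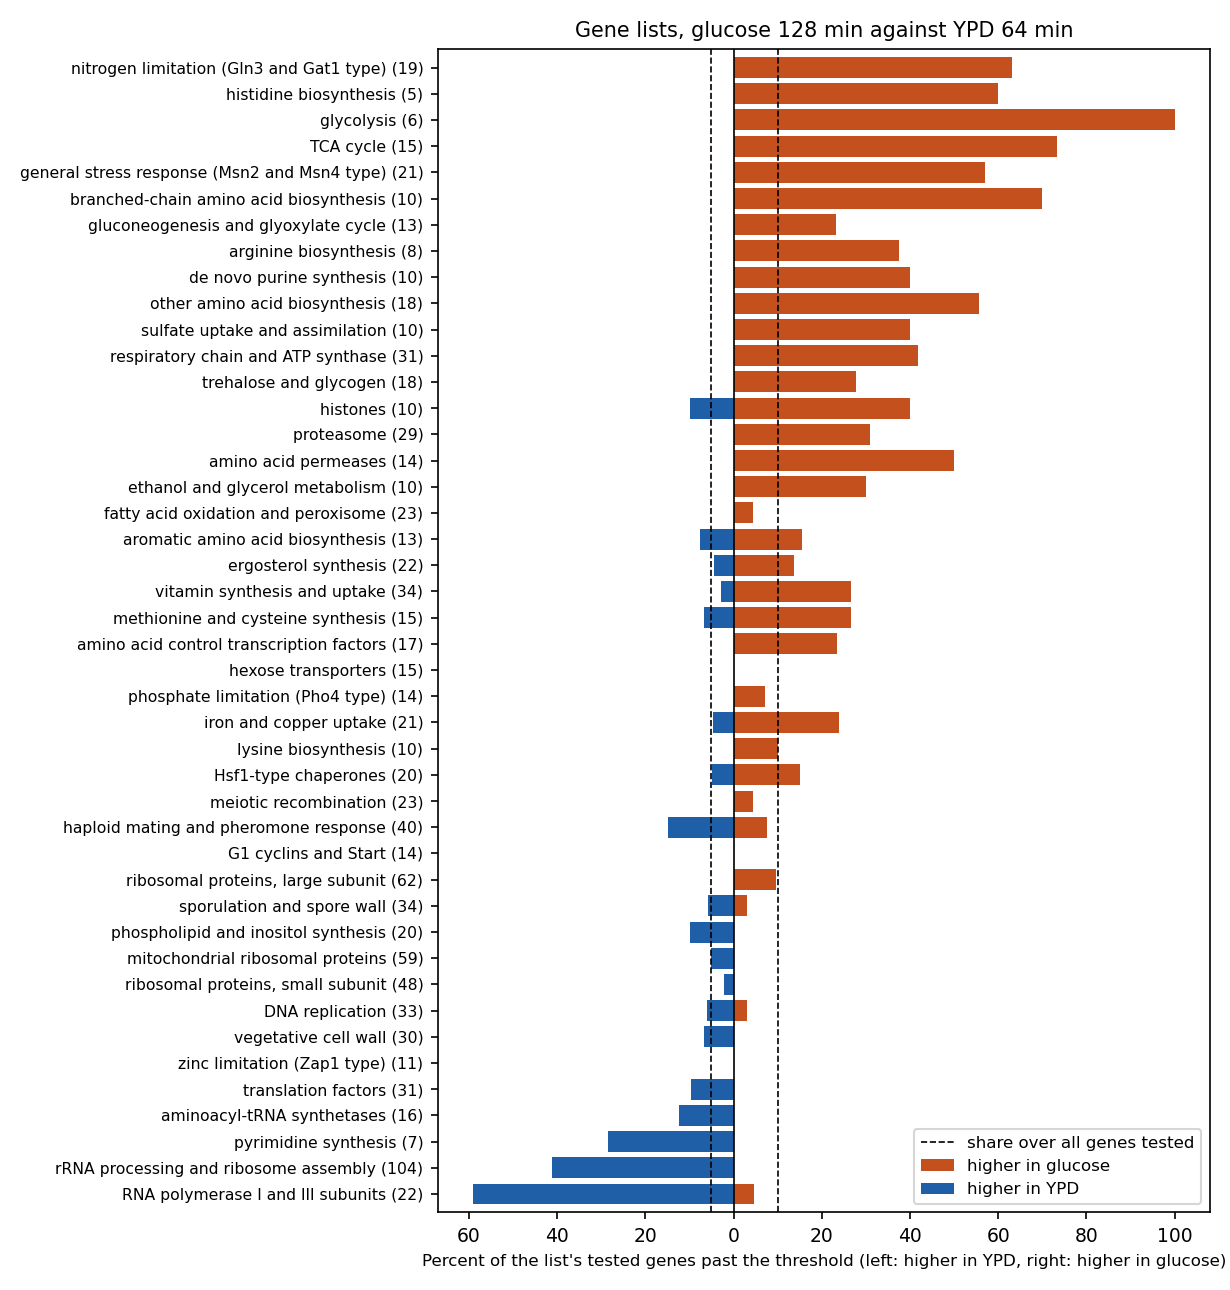
Percent of the tested genes of each list that were higher in glucose at 128 min (bars to the right) or higher in YPD at 64 min (bars to the left), with the number tested in brackets. Dashed lines give the shares over all 5739 genes, 10.1% and 5.23%, and the nitrogen and branched-chain lists, at 63.2% and 70%, lie far from the ribosome assembly list at 41.3% on the other side.

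Sulfur genes were higher in glucose in part, and 7 of 10 genes of sulfate uptake and 10 of 15 of methionine and cysteine synthesis were above the dormant level in both media. Of 10 tested genes of sulfate uptake and assimilation 4 were higher in glucose, and 2 without glucose replicate 3. They were the permeases SUL1 and SUL2, MET3, ATP sulfurylase, and MET22, by 1.31 to 1.76. MET3 stood at 2.51, 0.94 and 2.55 in glucose and 1.30, 0.13 and -0.69 in YPD, so that the groups overlapped (SE 0.46, limma adjusted p = 0.00605), and it lost the call without glucose or YPD replicate 3. MET14 and MET16, the next steps, had differences of 0.87 and 0.68 and did not pass the test.

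MET6, methionine synthase, had the largest difference of the route. Its level was 1.70, 0.76 and 1.04 in glucose and -0.62, -1.18 and -2.04 in YPD, a difference of 2.44 (SE 0.29, limma adjusted p = 9.08e-08). MET17, MET13 and STR2 were the other 3 of 15 tested genes of methionine and cysteine synthesis that were higher in glucose, and the count fell to 2 without glucose replicate 1, YPD replicate 1 or YPD replicate 2. MUP1, the high-affinity methionine permease, went the other way, at 0.93, 0.81 and 1.32 in glucose and 2.72, 2.52 and 1.75 in YPD (difference -1.31, limma adjusted p = 0.0039). SAM4, an S-methyltransferase that makes methionine from homocysteine and S-adenosylmethionine, stood at 0.02, 0.19 and -0.05 in glucose and 1.78, 1.65 and 1.59 in YPD. It rose above the dormant level in YPD alone, and its difference was -1.62 (SE 0.16, limma adjusted p = 2.1e-09). The 2 homocysteine methylating enzymes MET6 and SAM4 thus differed in opposite directions.

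Purine genes were also higher in glucose in part. Of 10 tested genes of purine synthesis 4 were higher in glucose, ADE17, ADE3, ADE13 and ADE2, by 1.45 to 2.41. ADE17, an enzyme of the last steps to IMP, had 1.02, 0.17 and -0.02 in glucose and -1.67, -1.93 and -2.48 in YPD (difference 2.41, SE 0.34, limma adjusted p = 1.32e-06). Pyrimidine genes did not follow, with 0 of 7 higher in glucose and 2 higher in YPD, URA7 and URA1, by differences of -1.40 and -1.27, of which 1 was called without glucose replicate 1, YPD replicate 2 or YPD replicate 3. When the arrays were scaled to a common spread, 6 sulfate, 5 methionine and 6 purine genes were higher in glucose, and URA7 and URA1 lost their calls.

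Of 14 tested amino acid permeases 7 were higher in glucose. DIP5, for glutamate and aspartate, stood at 1.03, 0.37 and 1.22 in glucose and had 2 measured YPD arrays, at -0.86 and -0.33 (difference 1.47, SE 0.40, limma adjusted p = 0.00953), and its Cy5 signal passed the background on 1 of these YPD arrays. SSY1, the membrane sensor of external amino acids, and PUT4, the proline permease, were below the dormant level in both media and higher in glucose by 1.31 and 1.14. AGP1, BAP2, CAN1 and VBA1 were higher by 0.75 to 1.12, and the count was 4 without glucose replicate 1 and 6 on the common spread.

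Of 17 tested transcription factors of these routes 4 (23.5%), MET32, GLN3, STP2 and LYS14, were higher in glucose by the limma test, against 10.1% of all genes, and the count was also 4 on the common spread. In YPD 0 were higher, also at an unadjusted p under 0.05. MET32 stood at 1.83, 2.29 and 2.05 in glucose and 0.72, 0.87 and 0.62 in YPD, a difference of 1.32 (SE 0.20, limma adjusted p = 7.02e-06). Its paralog MET31, at 0.80, 0.86 and 0.06 in glucose and 1.22, 0.97 and 0.97 in YPD, had a difference of -0.48 (SE 0.32, limma adjusted p = 0.346). BAS1, LEU3, DAL81 and CBF1 had differences of 0.12, -0.32, -0.03 and 0.46 and did not pass the test. GCN4, MET4 and MET28 had no tested value.

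Most genes of central carbon and energy metabolism were below the dormant level in both media, with 6 of 6 tested glycolytic, 12 of 15 TCA and 26 of 31 respiratory genes, and the other 3 TCA genes and 3 further respiratory genes were above it in glucose and below it in YPD. All 6 tested glycolytic genes were higher in glucose, and the other 11 of the 17 on the arrays had too few values for a test. GPM1, phosphoglycerate mutase, stood at -2.34, -2.58 and -2.51 in glucose and -5.13, -4.64 and -4.96 in YPD, a difference of 2.43 (SE 0.26, limma adjusted p = 6.72e-09). PDC5, a minor pyruvate decarboxylase whose probe may bind its paralogs, had -2.51, -2.82 and -1.76 against -4.84, -4.43 and -5.25. Both genes were thus far below the dormant level in each medium, and lower in YPD without overlap of the arrays.

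In the TCA cycle 11 of 15 tested genes were higher in glucose, with a median level of -0.98 against -1.97 in YPD. MDH1, mitochondrial malate dehydrogenase, stood at -1.34, -1.19 and -1.24 in glucose and -3.10, -2.54 and -3.04 in YPD (difference 1.64, SE 0.25, limma adjusted p = 5.9e-06). In the respiratory chain and ATP synthase 13 of 31 were higher in glucose, led by ATP7 and ATP3 by 1.55 and 1.34, together with HAP4, the regulatory subunit of their activator, by 1.25. The respiratory count was 7 without glucose replicate 1 and 8 without YPD replicate 2 or YPD replicate 3. No gene of the glycolytic and TCA lists was higher in YPD at an unadjusted p under 0.05, and 2 of the respiratory list were, both without a limma call.

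Of 21 tested genes of the general stress response 12 were higher in glucose. SIP18, a desiccation-induced hydrophilin, stood at -4.16, -4.71 and -4.10 in glucose and -5.94, -6.20 and -8.14 in YPD (difference 2.43, SE 0.47, limma adjusted p = 0.000233), and lost its call both without background subtraction and on the common spread. Its Cy5 signal passed the background on 1 of the 3 YPD arrays, so the size of the difference rests on YPD signals mostly near the background. CTT1, cytosolic catalase, and PNC1, the nicotinamidase, were higher by 1.62 and 1.93. HSP26, a small chaperone, ranged from -3.74 to -1.00 in glucose and from -5.01 to -3.43 in YPD, with overlapping arrays. Of the trehalose and glycogen genes 5 of 18 were higher in glucose, UGP1 by 1.78. The Cy5 signals of PNC1 and UGP1 passed the background on 2 of the 3 YPD arrays.

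On the common spread 1 of 6 glycolytic, 5 of 15 TCA and 0 of 31 respiratory genes were higher in glucose. Of the stress genes 1 of 21 was, of the trehalose and glycogen genes 1 of 18, and of all genes 265 of 5739. The difference of GPM1 on the common spread was 1.21. GPM1 and MDH1 kept their calls in every alternative, whereas ENO2, GLK1, TPS2, UGP1 and PNC1 lost theirs there. The part that the spread of the arrays plays in the unscaled counts was not tested.

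The proteasome and the histones showed smaller differences. Of 29 tested proteasome genes 9 were higher in glucose, by 0.67 to 1.11, and 3 without glucose replicate 3 or 5 without YPD replicate 2. Among 10 histone genes HTA2, HHT1, HHT2 and HHF1 were higher in glucose by 0.97 to 1.22 and HTA1 was higher in YPD, with a difference of -1.22. These genes are near-identical copies, so that opposite signs for HTA1 and HTA2 are uncertain. On the common spread 4 proteasome genes and 1 histone gene were higher in glucose and 0 in YPD.

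Ribosome assembly was the main group higher in YPD. Of 104 tested genes of rRNA processing and ribosome assembly 43 stood higher in YPD and 0 in glucose, against 5.23% and 10.1% of all genes, and at an unadjusted p under 0.05 they numbered 68 and 0. The median level was 0.74 in glucose and 1.58 in YPD, with array medians of 0.42 to 0.90 and 1.39 to 1.86. NOP9, needed for the small subunit, stood at 0.37, 0.61 and -0.22 in glucose and 1.44, 1.61 and 1.71 in YPD (difference -1.34, SE 0.20, limma adjusted p = 6.62e-06). RRP8, an rRNA methyltransferase, had 1.13, 0.85 and 0.75 against 2.01, 2.56 and 2.09. MRT4 and TSR2, assembly factors of the large and the small subunit, were among the 10 largest differences higher in YPD, with -1.63 and -1.62, of which MRT4 lost its call on the common spread and TSR2 had no Cy3 signal above the background on the 6 arrays. Of the 104 genes 101 were above the dormant level in both media.

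RNA polymerases I and III, which make rRNA and tRNA, followed the same direction in 13 of 22 tested subunits. RPA43 stood at 1.23, 1.45 and 1.46 in glucose and 2.53, 3.22 and 2.83 in YPD (difference -1.48, SE 0.26, limma adjusted p = 6.68e-05). RPB8, shared by all the nuclear polymerases, had a difference of -1.33. RPA14 was higher in glucose by 1.03, and it overlaps another open reading frame, YDR157W, from which spots of double-stranded DNA do not tell it apart.

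Both counts were lower in other settings. Without glucose replicate 3, 20 assembly genes and 8 polymerase subunits were higher in YPD. Without YPD replicate 2 the numbers were 21 and 7, and the polymerase count was 8 without glucose replicate 1. On the common spread 8 and 2 were past the threshold as higher in YPD, and the medians were -0.42 and -0.54. Over all 5739 genes those higher in YPD numbered 157 without glucose replicate 3, 168 without YPD replicate 2 and 208 without glucose replicate 1. On the common spread they numbered 114, against 300 in the main fit.

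Structural ribosomal proteins did not share the direction. Of 62 tested genes of the large subunit 6 (9.68%) were higher in glucose and 0 in YPD (4 at an unadjusted p under 0.05). Of 48 of the small subunit 1 (2.08%) was higher in YPD, RPS7B, and of 59 mitochondrial ribosomal proteins 3 (5.08%) were higher in YPD. These counts were near or under the shares over all genes, 10.1% higher in glucose and 5.23% higher in YPD. The medians were 0.01, -0.07 and -0.04. The mitochondrial count was 0 without glucose replicate 3 and 1 without YPD replicate 1, and that of the small subunit was 0 without glucose replicate 3 and 2 without glucose replicate 2 or YPD replicate 3. The 6 large subunit genes fell to 2 without glucose replicate 2, and to 1 without glucose replicate 3, YPD replicate 1 or YPD replicate 2. Many of these genes have near-identical copies. Translation factors had 3 of 31 higher in YPD, among them DED1, the DEAD-box initiation helicase, at 0.48, -0.15 and 1.59 in glucose and 2.68 and 2.19 on the 2 measured YPD arrays.

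PRM7, a pheromone-regulated membrane protein gene, had the largest difference higher in YPD. It stood at 1.71, 2.35 and 0.54 in glucose and 3.52, 3.79 and 4.03 in YPD, a difference of -2.25 (SE 0.49, limma adjusted p = 0.00104). Its Cy3 signal passed the background on 0 of the 6 arrays, so the size of its levels rests on a dormant signal at the background. Its difference on the common spread was -1.46 (limma adjusted p = 0.0645), at the earlier pair it was -0.53 (limma adjusted p = 0.544), and against YPD at 96 and 128 min it was -0.44 and -0.08. The 10 largest differences in each direction were taken from called genes whose arrays did not overlap and whose Cy5 signal passed the background in the higher group. Of the 10 largest differences higher in YPD 7 lost their call on the common spread and 2 were called in every alternative, against 1 and 8 of the 10 largest higher in glucose. Of 40 tested mating genes 3 (7.5%) were higher in glucose and 6 (15%) were higher in YPD, against 10.1% and 5.23% of all genes, with a median difference of 0.05. Their counts on the common spread were 1 in glucose and 0 in YPD. MF(ALPHA)1, the alpha-factor gene, had 1.70 and 1.39 on the measured glucose arrays and 3.08, 2.67 and 2.34 in YPD, with 0 of 6 arrays above the background in Cy3, and FUS1, for cell fusion, was the opposite, at 0.77, 0.82 and 0.81 in glucose and 0.30, 0.18 and -0.46 in YPD. HO, the mating-type switching endonuclease, was higher in YPD, at 1.02, 1.16 and 1.16 against 1.78, 2.47 and 2.20. STE12 and DIG1, the activator of mating genes and its inhibitor, had differences of -0.58 and -0.11 and did not pass the test. The 6 genes higher in YPD fell to 3 without glucose replicate 3.

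Of the remaining genes among the 10 largest differences in each direction, NCE103, carbonic anhydrase, stood at 4.40, 2.41 and 2.88 in glucose and 0.41, 1.21 and 0.74 in YPD (difference 2.44, SE 0.42, limma adjusted p = 5.24e-05). It was far above the dormant level in glucose. MDG1, linked to pheromone signalling, was below that level in both media and higher in glucose by 2.45, and its Cy5 signal passed the background on 1 of the 3 YPD arrays. YFL013W-A in glucose, and YCL065W and YGR160W in YPD, are open reading frames without a match in the gene table used, and YFL051C, RMT2, an arginine methyltransferase, and PFU1 were higher in YPD by differences of -1.51, -1.50 and -1.49. The Cy3 signals of YGR160W and YFL051C passed the background on 0 of the 6 arrays.

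Several lists were near or under the shares over all genes. No hexose transporter of 15, no gene of G1 cyclins and Start of 14 and no zinc limitation gene of 11 passed the limma test, and at an unadjusted p under 0.05 there were 1, 2 and 0. Of 34 sporulation genes 1 was higher in glucose and 2 higher in YPD, of 23 meiotic recombination genes 1 was higher in glucose, and of 30 cell wall genes 2 were higher in YPD. Vitamin genes stood above that share, with 9 of 34 (26.5%) higher in glucose against 10.1% of all genes, and 5 on the common spread. They included SNZ1, of vitamin B6 synthesis, and BIO2, biotin synthase, at differences of 1.71 and 1.42. TNA1, the nicotinic acid permease, was the only one of them higher in YPD in this fit, at -1.33.

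Whether a level in glucose at 128 min is one that YPD passes through at any time was asked by setting the 3 glucose arrays against all 27 YPD arrays from 0 to 128 min, as a description with no test. All glucose arrays lay above every YPD array in 35 genes (0.61%) and below every one in 10 (0.174%). Of the 35 genes 32 were among the 582 higher in glucose. They were led by UGA1, DAL80, MET6, ARG1, GDH2, BAT2, ASN1, UGA2, DAL2 and LEU2. The nitrogen list held 7 of them, the branched-chain list 4, and the arginine and the sulfate list 2 each. DAL2 had 1.64, 1.73 and 1.44 in glucose, while the highest of all YPD arrays was at 0.46, and CAR1 had at least 2.60 against a highest YPD array of 1.82. The 10 genes below every YPD array, with HOP2, STU1, YFH1 and GIS3 among them, were in none of the lists apart from HOP2, a gene of meiotic recombination, and GIS3 stood at -0.63, -0.72 and -0.71 in glucose.

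**Figure D4:**
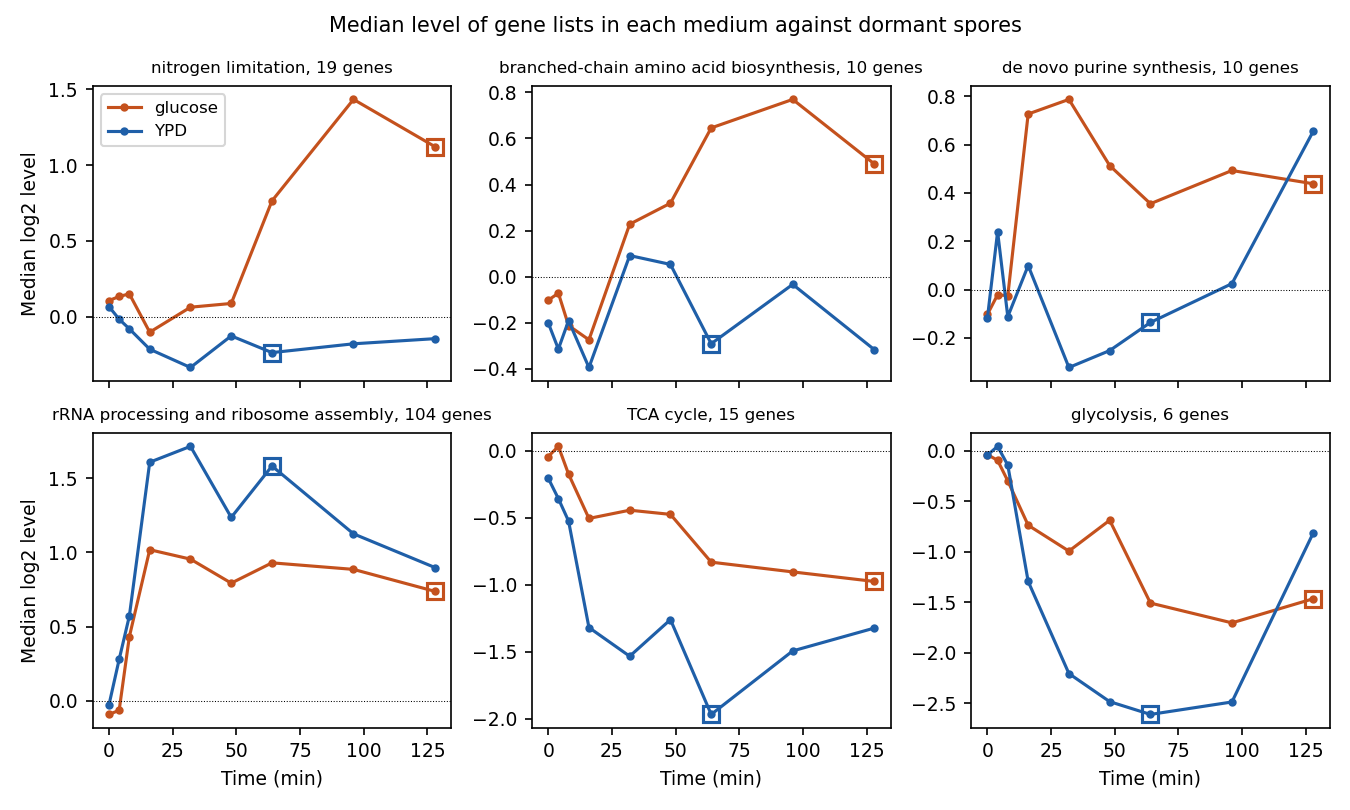
Median log2 level over the tested genes of 6 lists in glucose and in YPD at each time from 0 to 128 min (x axis, minutes), with open squares at glucose 128 min and YPD 64 min. The nitrogen list has a median of 0.09 in glucose at 48 min and 1.12 at 128 min and of -0.15 in YPD at 128 min, whereas the glycolytic and purine lists in YPD lie above the glucose line at 128 min, at -0.81 and 0.66.

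The levels at the neighbouring YPD times, which share the glucose arrays with the main comparison, are given beside it. For the nitrogen list the median difference of glucose at 128 min was 1.04, 1.26, 1.15 and 1.12 against YPD at 48, 64, 96 and 128 min. The branched-chain list gave 0.60, 0.98, 0.84 and 1.15, and the sulfate list 1.53, 0.77, 1.06 and 0.85. The medians of these lists were above 0 whichever of these YPD times was taken.

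Other lists differed with the YPD time taken. The YPD arrays at 128 min were quantified on the same day as glucose replicates 1 and 2. Those at 48, 64 and 96 min were quantified on other days, so time and day cannot be told apart here. The glycolytic median was 0.92, 1.09 and 0.93 against YPD at 48, 64 and 96 min and -0.04 against 128 min, and that of purine synthesis was 0.81, 0.84, 0.49 and -0.24. The respiratory list went from 0.75 at 64 min to 0.07 at 128 min, and ribosome assembly from -0.85 to -0.07. The TCA and stress lists kept 0.73 and 1.13 against YPD at 128 min. Mating genes had 0.16 and 0.05 against YPD at 48 and 64 min and -1.22 and -0.93 against 96 and 128 min.

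**Figure D5:**
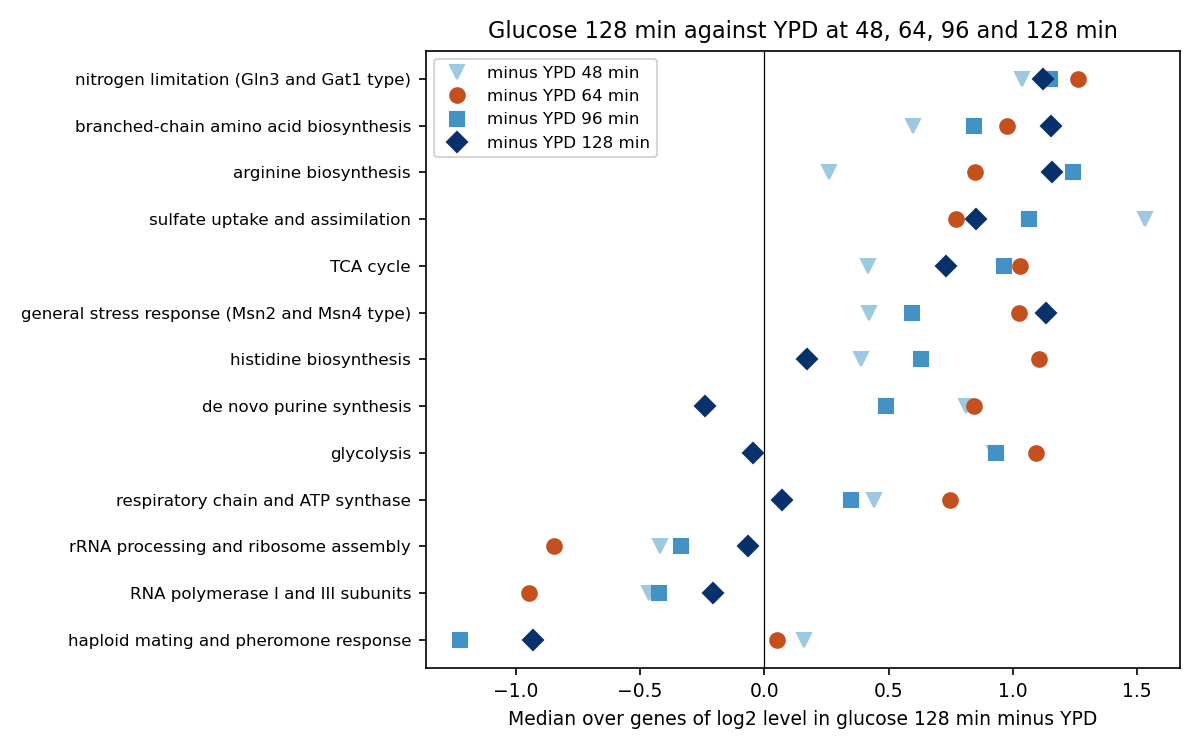
Median over the genes of 13 lists of the log2 level in glucose at 128 min minus that in YPD at 48, 64, 96 and 128 min (symbols), all with the same 3 glucose arrays. The nitrogen list stays between 1.04 and 1.26, the glycolytic list reaches -0.04 at YPD 128 min and the mating list lies at 0.05 at 64 min and -1.22 at 96 min. Of these YPD times only 128 min shares a quantification day with the glucose arrays, with replicates 1 and 2.

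The earlier pair with the same 2-fold lag used other arrays. In glucose at 96 min against YPD at 48 min 442 genes (7.7%) were higher in glucose and 164 (2.86%) were higher in YPD by the limma test. Of the 582 genes of the later pair 91.8% were also on the glucose side in the earlier pair, against 52.1% of all genes, and 223 were called there, 38.3% of the 582 and 50.5% of the 442. Of the 300 genes 81.3% were on the YPD side, against 47.9% of all genes, and 39 were called, 13% of the 300 and 23.8% of the 164. The spread of the arrays also differed between media at the earlier pair, at 0.84, 0.83 and 0.67 in glucose and 0.92, 1.03 and 0.98 in YPD. On the YPD arrays at 48 min 19.4% to 24.4% of spots were left out for flags, and at 64 min 10.8% to 13.2%. Cy3 passed the background in 87.7% to 92.8% of spots at 48 min and in 48.3% to 69.5% at 64 min. The YPD 48 min arrays were quantified on other days than those at 64 min, and their dyes were read from image names alone.

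By gene group, 14 of 19 nitrogen genes, 5 of 10 branched-chain genes, 7 of 10 sulfate genes and 10 of 21 stress genes were higher in glucose at the earlier pair. UGA1 had a difference of 2.10 there, DAL80 of 3.03, MET6 of 2.89 and CAR1 of 2.62, all past the limma threshold. Ribosome assembly had 5 of 104 and polymerases I and III 2 of 22 genes higher in YPD, with medians of -0.32 and -0.24, and 1 polymerase gene was higher in glucose. Lower counts than at the later pair were found in glycolysis, with 3 of 6, the TCA cycle, with 4 of 15, and respiration, with 4 of 31 higher in glucose. Arginine synthesis had 3 of 8, histidine synthesis 2 of 5, the other amino acid genes 5 of 18, methionine and cysteine synthesis 4 of 15, purine synthesis 2 of 10 and the permeases 3 of 14. Proteasome and histone genes numbered 7 of 29 and 4 of 10. Of the 40 mating genes 6 were higher in glucose and 2 in YPD there. Over all 5739 genes 223 were called higher in glucose and 39 higher in YPD in both pairs. Among these were 11 nitrogen, 5 branched-chain, 4 sulfate and 10 stress genes, and 5 of the ribosome assembly genes. The overlap was 4 TCA, 3 glycolytic and 2 respiratory genes, and 0 of the 13 polymerase genes higher in YPD were called in both. None of the 104 assembly genes passed the test of a change between the pairs, so that their lower count at the earlier pair is not shown to be a difference.

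The change of the shifted difference from the earlier to the later pair passed the test in 34 genes (0.592%). The largest change was that of SVP26, a membrane protein of vesicle transport, whose difference went from -2.60 to 1.92 (change 4.51, limma adjusted p = 1.62e-08). Its YPD arrays stood at -0.48, -0.18 and -0.44 at 48 min and at -4.30, -4.14 and -4.32 at 64 min. The YPD levels thus differed between the 2 times, and which of them is unusual was not tested. The gene was picked after its values were seen. RPA49, of polymerase I, was the one gene of the assembly and polymerase lists with such a change, from 0.95 to -1.29.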

How the data were processed

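RNA of 18 groups, YPD or 2% glucose at 9 times, was measured on 53 spotted 2-colour arrays, 3 biological replicates per group except glucose at 0 min. The authors deposited intensities of 13056 spots for either dye, read with ImaGene 6.0.1 per the file headers, without normalization or subtraction of the background. The authors also deposited 1 loess-normalized log2 ratio per gene and group, their mean over replicates, used as an alternative. Across genes it correlated with the means from the scanner files at 0.95 for glucose at 128 min and 0.96 for YPD at 64 min. Among the named genes the difference of DIG1 changed sign, from -0.11 in the scanner files to 0.0649.

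Spot means were corrected with normexp (offset 50), and the log2 ratios were loess-normalized over each whole array (span 0.3, 4 iterations). Spots flagged poor or by hand, 10.8% to 14.3% per array of the pair, were left out, and ImaGene's flags were taken from the headers where the methods name another program. Spots of a gene were averaged. On the arrays of the second layout (11 arrays, all in glucose) 370 spots hold another gene, so identifiers were read per array. The layouts share 6218 genes. The 5739 genes with values in all groups and on at least 2 arrays of both groups in the pair were tested, and 479 were left out. Of the tested genes 5206 matched the R64 gene table by locus tag, and the rest keep the name in the files. A further named gene is not reported here. Promoter motifs were not analysed here, and no coordinates or sequences were used.

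All groups were fitted with limma 3.58.1 (lmFit, eBayes, R 4.3.3), with Benjamini-Hochberg adjustment over all tested genes and a threshold of 0.05, and the fit was checked on simulated data. The methods state biological replicates, and p-values measure the spread between these arrays. Named genes were the 10 largest differences in each direction among genes past the threshold whose arrays did not overlap and whose Cy5 signal in the higher group passed the background by 2 SD on every array. To these came the 3 largest of each list above the share over all genes, the highest and lowest of each other list, and the regulators of amino acid and mating genes that the study names. Other genes were named after their values were seen. The pair of times, the 44 gene lists, which hold 1005 tested places of 1175, and the tests were chosen with earlier results of these data known.

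Few arrays and weak signals limit the precision. The median spot of the 6 arrays was 1.59 to 2.24 times its background in Cy3 and 2.00 to 3.49 times in Cy5, and 48.3% to 78.0% of spots in Cy3 and 83.2% to 93.1% in Cy5 passed the background by 2 SD. In 10 called genes, none of which is named here, Cy5 did not pass the background on any array of the lower group. Alternatives were run for the background, the loess step, the spot intensity, the treatment of flags, the filter on dim genes, the arrays and groups in the fit, and blocks for replicate, day and layout. The common spread, the day as a fixed block, the folder numbers as a block and the alternatives for the position in the YPD course were added after the data were seen.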

Additional observations from a re-analysis of the deposited data

Results flagged for a closer look

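In 6 named genes the difference between the media at the same lag changed between the earlier and the later pair. The earlier pair is glucose 96 min with YPD 48 min, the later glucose 128 min with YPD 64 min. The test was limma's of the change itself, Benjamini-Hochberg adjusted. The YPD 48 min arrays differed from those at 64 min in flagged spots, Cy3 signal and quantification day. What part this plays in the changes was not tested. In 2 of the 6 genes the later difference was the more positive. UGA1 went from 2.10 to 3.39, a change of 1.29 (adjusted p = 0.0414), and its mean level was 1.60 and 1.43 in glucose and -0.51 and -1.97 in YPD. BIO2, biotin synthase, went from -0.22 to 1.42, a change of 1.64 (adjusted p = 0.00325).

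In the other 4 it was the more negative. RPA49, of RNA polymerase I, changed by -2.24 (adjusted p = 0.00325), with YPD levels of 0.97 at 48 min and 2.70 at 64 min and glucose levels of 1.92 and 1.41. STE4, the G protein beta subunit of the pheromone pathway, changed by -1.86 (adjusted p = 0.0128), with YPD levels of 1.04 at 32 min, 0.12 at 48 min and 1.95 at 64 min. MF(ALPHA)1 changed by -2.25 (adjusted p = 0.00648), from 0.12 to 2.70 in YPD and from 1.22 to 1.55 in glucose. UTR2, a cell wall cross-linking enzyme, changed by -1.58 (adjusted p = 0.0267), from 0.32 to 2.80 in YPD and from 0.49 to 1.39 in glucose. RPA49, STE4 and UTR2 lost the call of the later pair in 1 alternative each, and MF(ALPHA)1 in 5.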

How the results depend on the processing

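The counts of the pair, 582 genes higher in glucose and 300 higher in YPD, were 368 to 556 and 157 to 295 when 1 array was left out, 323 and 140 with only the 6 arrays in the fit, 368 and 124 with quantification day as a random block, and 682 and 460 with print-tip loess. Over the genes measured on all arrays they were 171 and 73, and 77 and 41 with day as a fixed block. On the common spread they were 265 and 114. The earlier pair gave 279 to 383 and 65 to 125 without 1 array, and 920 and 841 without background subtraction, against 442 and 164. The genes below every YPD array, 10, were 4 without background subtraction and 5 when spots of every flag were kept. Of the lists, the median of DNA replication was -0.139 to 0.00644 without 1 array, and on the common spread aminoacyl-tRNA synthetases had 0.0971 and gluconeogenesis -0.0226. The causes were not tested. Of the single gene differences, 2359 values over all alternatives stayed on their side of the threshold or, for the deposited means, within the replicate spread, and 37 deposited means moved by more. The threshold was lost in 235 values and passed in 32. None of the 103 named genes past the threshold changed sign, and 7 of the 28 others did, with 0 such values past it. Print-tip loess gave 0.00562 for LYS9, -0.33 for EFB1, 0.42 for VTC4 and 0.38 for DAL81, median centring -0.0587 for LYS21, no background subtraction 0.00807 and the deposited means 0.0649 for DIG1, the layout as a block 0.0875 for DAL81, and the common spread 0.46 for LYS9 and 0.0224 for DAL81. Without 1 array LYS9 was at -1.03 to 0.42, DAL81 at -0.17 to 0.19, DIG1 at -0.25 to 0.00144 and BAS1 at -0.0326 to 0.30. Of 103 named genes past the threshold 34 stayed past it in every alternative and 49 lost it on the common spread.

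The file numbers pair no samples in the labels. The deviations of same-numbered arrays correlated at 0.10, -0.03 and -0.10, and with this replicate block 616 and 323 genes were called. The numbers of the image folders gave 0.07, 0.26 and 0.14, and 694 and 368 genes with that block. Precision is limited by Cy3 signals close to the background.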
